A study of Mus musculus with 18 samples.

Results

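The genes described here are 37 genes of glycolysis and of the response to low oxygen. They were taken by symbol from a fixed list, and all 37 were found among the 41079 genes of the expression table. By role they comprised 2 glucose transporters, 11 genes of upper glycolysis, 6 of lower glycolysis, 4 that handle pyruvate and lactate, 4 for hypoxia-inducible factors (HIFs) and their hydroxylases, and 10 that are commonly used as readouts of hypoxia. Of the 37, 36 reached 1 FPKM on average over the tumors and entered the tests, among 12357 genes in all. Pfkfb4, with a mean of 0.732 FPKM, did not. FPKM scales the sequenced fragments of a gene by its length and by the total assigned in that tumor.

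Expression was measured by poly(A) RNA sequencing in 18 subcutaneous B16F10 tumors, 3 in each of 6 groups. B16F10 is a mouse melanoma line, and the hosts were female C57BL/6 mice. Injections went into the tumor, started on day 6 after implantation and were repeated every 2 days, and tumors were collected 48 h after the last one. Nothing in the sample records ties a replicate number to a shared cage, litter or day. PBS tumors received the vehicle. Free PS473 tumors received the unpackaged Pistol ribozyme PS473, an RNA enzyme designed to cut the mRNA of PD-L1 (gene Cd274). PS473@CPs tumors received the same ribozyme on cationic polymers. NKMOF-101-[Mn] tumors received an empty manganese metal-organic framework, M5@NKMOF-101-[Mn] tumors received the framework loaded with the inactive ribozyme mutant M5, and PS473@NKMOF-101-[Mn] tumors received the framework loaded with PS473. The sample titles of this last group write the framework as NKMOF-102. They were placed here since no other group of the study combines the active ribozyme with the framework. The 9 tumors of the last 3 groups are called framework tumors, and the other 9 are called tumors without framework. Each library comes from a whole piece of tumor from a host with its own immune system and vessels. A lower level of a gene therefore cannot be told apart from fewer of the cells that express it.

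Glycolysis converts glucose to pyruvate and, through lactate dehydrogenase, to lactate, which leaves the cell by monocarboxylate transporters. When oxygen falls, the prolyl hydroxylases encoded by Egln1 and Egln3 stop marking the HIF alpha proteins (Hif1a, Epas1) for destruction. The stabilised factors bind short DNA elements near their target genes, which include most glycolytic enzymes, Vegfa, Car9 and the mitophagy receptors Bnip3 and Bnip3l. Egln3 is itself a HIF target. Hif1a protein is regulated after transcription, so the mRNA levels given below do not measure HIF activity. Established melanoma cell lines are known for high glycolytic gene expression also with oxygen present.

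The depth recovered from the spacing of low values was 1.72e+07 to 2.84e+07 fragments per tumor. The melanoma markers, which are 10 pigment and lineage genes, were above 0 in every tumor and summed to 5029 to 7975 FPKM. Cd274, the ribozyme's target, lay between 9.74 and 32.9 FPKM, and both ends were PS473@NKMOF-101-[Mn] tumors (17, 32.9 and 9.74 FPKM). PBS tumors held 21.5, 15.7 and 12.3 FPKM, inside that range. Markers of skin epithelium differed most between tumors: in 10 tumors, 5 with and 5 without framework, their score (mean log2(FPKM + 1) of 11 genes) was 0.96 to 6.81, and in the other 8 it was 0.15 to 0.22. PBS tumors 2 and 3 and PS473@CPs tumor 2 were among the 10.

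RefSeq promoter windows (250 bases before to 50 after a start site, build GRCm38.p6) were found for 33 of the 37 genes. Slc2a3, Epas1, Bnip3l and Ndrg1 had none. Sequences are shown because subsets of these genes rose and fell together across tumors, as described further on, and because HIFs recognise a core of 5 bases, ACGTG or, less often, GCGTG. The 250 bases before the start are given for Pgk1, Ldha and Bnip3, which varied closely together, for Egln3, which did not follow them, and for Pfkfb3 and Pfkfb4, whose ratio differed between treatments. Each runs 5′ to 3′ on the strand of its gene, and capitals mark ACGTG and GCGTG on either strand.
Pgk1, plus strand, chrX:106186850-106187099: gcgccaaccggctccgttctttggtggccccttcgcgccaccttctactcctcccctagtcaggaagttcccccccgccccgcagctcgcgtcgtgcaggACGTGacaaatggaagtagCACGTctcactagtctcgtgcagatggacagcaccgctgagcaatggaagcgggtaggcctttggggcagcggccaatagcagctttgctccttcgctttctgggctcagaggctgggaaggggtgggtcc
Ldha, plus strand, chr7:46845554-46845803: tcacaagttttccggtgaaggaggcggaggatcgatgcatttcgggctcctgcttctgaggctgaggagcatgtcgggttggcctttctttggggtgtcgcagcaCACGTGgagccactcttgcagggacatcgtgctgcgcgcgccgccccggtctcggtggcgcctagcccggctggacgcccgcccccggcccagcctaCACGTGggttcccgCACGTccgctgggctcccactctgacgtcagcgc
Bnip3, minus strand, chr7:138909507-138909756: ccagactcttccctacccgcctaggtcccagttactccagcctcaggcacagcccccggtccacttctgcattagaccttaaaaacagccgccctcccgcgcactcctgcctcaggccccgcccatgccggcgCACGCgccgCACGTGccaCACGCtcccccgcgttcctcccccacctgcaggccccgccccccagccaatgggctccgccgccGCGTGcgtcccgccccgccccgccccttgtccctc
Egln3, minus strand, chr12:54203875-54204124: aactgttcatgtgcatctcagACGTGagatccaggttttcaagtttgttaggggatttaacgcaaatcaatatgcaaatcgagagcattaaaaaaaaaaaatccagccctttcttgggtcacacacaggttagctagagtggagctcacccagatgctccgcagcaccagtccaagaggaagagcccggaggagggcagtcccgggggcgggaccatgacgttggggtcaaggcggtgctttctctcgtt
Pfkfb3, minus strand, chr2:11502091-11502340: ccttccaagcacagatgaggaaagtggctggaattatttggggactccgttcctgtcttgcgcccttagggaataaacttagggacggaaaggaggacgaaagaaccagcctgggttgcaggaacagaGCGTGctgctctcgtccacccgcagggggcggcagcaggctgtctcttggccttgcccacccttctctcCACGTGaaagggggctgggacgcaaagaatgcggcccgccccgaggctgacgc
Pfkfb4, plus strand, chr9:108991652-108991901: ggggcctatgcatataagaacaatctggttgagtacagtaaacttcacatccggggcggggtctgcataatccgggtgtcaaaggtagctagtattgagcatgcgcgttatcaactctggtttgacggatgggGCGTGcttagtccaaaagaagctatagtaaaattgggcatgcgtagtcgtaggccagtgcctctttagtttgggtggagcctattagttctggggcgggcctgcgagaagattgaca

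Bnip3 held 4 marked places in these bases, Ldha 3, Pgk1 and Pfkfb3 2 each, and Egln3 and Pfkfb4 1 each. Whether the number of places goes with the correlations was not tested, and the genes shown were picked with the correlations known. Where the motif and its reverse complement overlapped, as in CACGTG, they were counted as 1 place. A further window of Ldha held 2 places over its full length, both GCGTG, so the counts depend on the start site shown. Over all 49 windows of the 33 genes, 77.6% held at least 1 place, against 43.8% of the 32851 windows of all genes. ACGTG was in 53.1% of the windows against 19.6%, GCGTG in 55.1% against 32.4%, and 3 or more places were in 24.5% against 6.55%. The windows also differed in base composition: the median number of CG dinucleotides was 20 in these genes and 7 in all genes, and both motifs contain CG. Of the 33 genes, 30 held a place in at least 1 window. A match of letters is not evidence of binding.

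The glycolytic enzymes were among the most abundant mRNAs of these tumors. Of the 37 genes, 8 ranked in the top 100 of the genes tested by mean level, and 30 lay above the median mean of 7.41 FPKM. The enolase gene Eno1 had the highest mean, 2420 ± 343 FPKM (SD, n = 18), and ranked 7. The phosphoglycerate kinase gene Pgk1 followed at 1988 ± 307 FPKM and ranked 8, and Tpi1, for triosephosphate isomerase, at 1731 ± 331 FPKM ranked 10. Means of the aldolase gene Aldoa (938 FPKM), Ldha for lactate dehydrogenase A (602 FPKM), Gpi1 for glucose-6-phosphate isomerase (586 FPKM), Pgam1 for phosphoglycerate mutase (522 FPKM) and Pkm for pyruvate kinase (470 FPKM) came next. Together, the genes of upper and lower glycolysis and Ldha, 18 in all, held 1.96% to 3.6% of the summed FPKM of a tumor, with a median of 2.84%. The lowest share was in PS473@CPs tumor 2, which had the highest skin epithelium score, and the highest in PS473@NKMOF-101-[Mn] tumor 3.

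**Figure D1:**
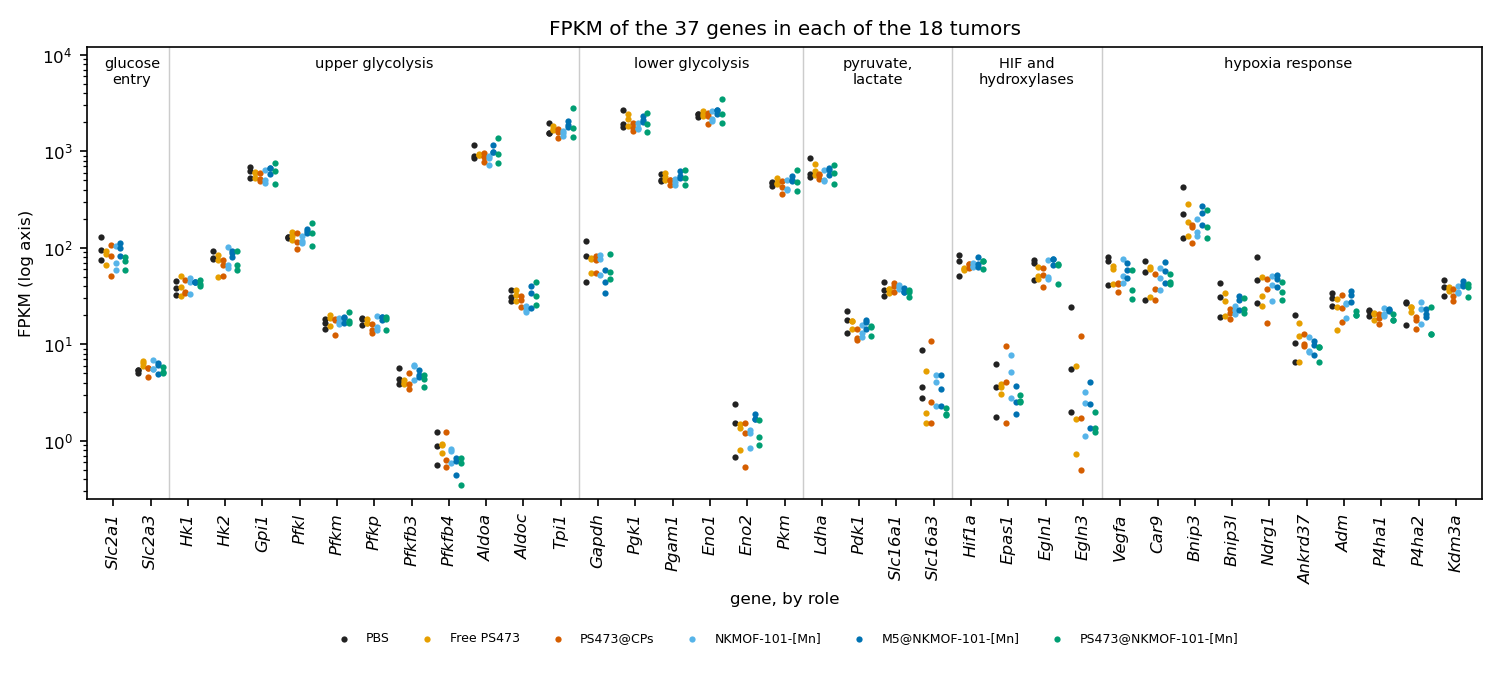
FPKM (log axis) of each of the 37 genes in each of the 18 tumors, with 1 point per tumor, colours for the 6 groups and vertical lines between roles. The points lie within a factor of 2 for 19 of the genes, and those of Slc16a3, Epas1 and Egln3 spread over 7.17-fold, 6.28-fold and 49.6-fold.

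Gapdh, for glyceraldehyde-3-phosphate dehydrogenase, stood out at the other end. Its mean was 66.9 ± 20.7 FPKM, 36.2-fold below Eno1 and 29.7-fold below Pgk1, the gene of the next step of the pathway, and it ranked 840. In the GENCODE M21 annotation of GRCm38, 24.6% of the 50-base words of Gapdh transcripts recur in annotated pseudogenes, 213 of which share at least 1 such word. Of these pseudogenes, 9 were found in the expression table by name, and they held 5.02% to 14.6% of the fragments that they and Gapdh had together. How the authors' counting treated fragments that match several places is not given in the sources used here, so the level of Gapdh is uncertain. Of all 37 genes, 14 share such a word with a pseudogene and 23 with none. The shared part was 53.9% for Pgk1, 36.2% for Pgam1, 20.8% for Bnip3l, 19% for Eno1, 16.5% for Bnip3, 14.2% for Pkm and 8.53% for Ldha. The levels of these genes are uncertain for the same reason, and so is the distance of Gapdh from Eno1 and Pgk1.

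At several steps more than 1 gene encodes the enzyme or transporter, and the same form had the higher level in every tumor. Slc2a1 (GLUT1, mean 84.1 FPKM) was above Slc2a3 (GLUT3, 5.66 FPKM) in 18 of 18 tumors by 9.03-fold to 23.8-fold. Hexokinase gene Hk2 was above Hk1 in 18 of 18 tumors by 1.28-fold to 2.67-fold. Aldoa exceeded Aldoc by 25.4-fold to 41.8-fold. Eno1 exceeded Eno2, the neuronal enolase, by 1004-fold to 4312-fold. Eno2 itself was near the limit of the test, with a mean of 1.32 FPKM and 42.5 to 189 fragments per tumor. Of the phosphofructokinase genes, Pfkl (132 FPKM) was above Pfkm (17.4 FPKM) and Pfkp (16.9 FPKM), whose means differed by less than their spread over tumors (SD 2.1 and 2.13 FPKM). Slc16a1 (MCT1, 36.9 FPKM) was above Slc16a3 (MCT4, 3.68 FPKM) in all 18 tumors, and Hif1a (66.3 FPKM) above Epas1 (HIF-2 alpha, 3.84 FPKM) in all 18. Among the hydroxylases, Egln1 (PHD2) had a mean of 59.5 FPKM and Egln3 (PHD3) 4.09 FPKM.

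Among the readouts of hypoxia, Bnip3 had the highest mean, 194 ± 76.5 FPKM. Vegfa, the endothelial growth factor (53 ± 15.2 FPKM), Car9, the membrane carbonic anhydrase IX (49.5 ± 13.7 FPKM), Ndrg1 (40.3 ± 14.1 FPKM) and the histone demethylase gene Kdm3a (37.4 ± 5.12 FPKM) followed. Bnip3l (25.6 FPKM), the adrenomedullin gene Adm (25.4 FPKM) and the collagen prolyl hydroxylase genes P4ha2 (20.7 FPKM) and P4ha1 (20.4 FPKM) were close to each other, and Ankrd37 was lowest at 10.4 ± 3.44 FPKM. Pdk1, for a pyruvate dehydrogenase kinase, had a mean of 15.1 ± 2.82 FPKM.

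The genes varied somewhat more between tumors than genes in general, with a median SD within groups of 0.24 on the log2 scale against 0.18 over all genes tested. The ratio of the highest to the lowest tumor was below 2 for 19 of the 37 genes, with a median of 1.99, against 1.72 over all genes tested that were above 0 in every tumor. It was 3 or more for 9 genes: Ankrd37, Gapdh, Pfkfb4, Bnip3, Eno2, Ndrg1, Epas1 (6.28), Slc16a3 (7.17) and Egln3 (49.6). Certain tumors were at the ends for many genes at once. PBS tumor 1 was the highest of all 18 for 11 of the 37 genes and PS473@NKMOF-101-[Mn] tumor 3 for 9, whereas PS473@CPs tumor 1 was the lowest for 13 and PS473@CPs tumor 2 for 9. Both tumors at the low end belong to PS473@CPs, and the third tumor of that group was the lowest for 0 genes. The skin epithelium score was 6.81 in PS473@CPs tumor 2, 0.18 in PS473@CPs tumor 1, 0.20 in PBS tumor 1 and 0.96 in PS473@NKMOF-101-[Mn] tumor 3, and its part in these positions was not tested. Groups accounted for a median of 27.9% of the variance of log2(FPKM + 1) over the 36 genes tested, against 23.3% over all genes tested. A share of 29.4% is what 5 of 17 degrees of freedom give on average when groups do not differ. The share was highest for P4ha1 (54.3%) and Pdk1 (48.5%) and lowest for Ankrd37 (13.1%).

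PS473@NKMOF-101-[Mn] was compared with PBS to ask whether the complete treatment changed the genes. None of the 36 genes was called at an adjusted p under 0.05 and a change above 2-fold, and the background was 0 of 12357 genes (0.0%, limma with Benjamini-Hochberg adjustment, smallest adjusted p = 0.993). At an unadjusted p under 0.05 there was 1 of the 36, Vegfa, beside 260 of all genes (2.1%). With PS473@NKMOF-101-[Mn], Vegfa was 59.1, 36.6 and 29.5 FPKM, and with PBS it was 79.9, 73.3 and 41.5 FPKM. The groups overlapped, since treated tumor 1 lay above PBS tumor 3. The log2 fold change of FPKM + 1 was -0.63 (95% interval -1.25 to -0.01, unadjusted p = 0.0454, adjusted p = 0.993 by limma). Under quantile normalization, with no filter on level, and with the skin epithelium score as a covariate (added after the values had been seen), none of the 36 genes had an unadjusted p under 0.05 in this comparison.

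The widest difference was that of Egln3. It was 1.37, 1.98 and 1.23 FPKM in PS473@NKMOF-101-[Mn] tumors and 1.96, 24.4 and 5.48 FPKM in PBS tumors, a log2 fold change of -1.65 (95% interval -3.34 to 0.04, adjusted p = 0.993 by limma). The groups overlapped at PBS tumor 1, without PBS tumor 2 the log2 fold change was -0.81, and with the skin epithelium score as a covariate it was -0.89. PBS tumors 2 and 3, the higher pair, were also those with a high skin epithelium score, and the score was 0.20 in PBS tumor 1. Slc2a1 was 79.3, 58.3 and 72.3 FPKM against 94.6, 128 and 73.6 FPKM, a log2 fold change of -0.47 (95% interval -1.05 to 0.12). Ldha was 594, 456 and 726 FPKM against 840, 584 and 535 FPKM, a log2 fold change of -0.14 (95% interval -0.54 to 0.26). Car9 was 53.4, 42.5 and 44.4 FPKM against 73.3, 55.4 and 28.9 FPKM, a log2 fold change of -0.07 (95% interval -0.80 to 0.65). In each of these 3 genes at least 1 treated tumor lay above at least 1 PBS tumor, and the adjusted p was 0.993 by limma. For 26 of the 36 genes the 95% interval lay inside a 2-fold change in both directions. Estimates were below 0 for 25 of the 36 genes, against 53.6% of all genes, with a median log2 fold change of -0.12 against -0.01. The genes vary together between tumors, so these 25 are not separate observations. The same holds for the counts of estimates below 0 in all comparisons that follow. Adm and Slc16a3 were lower in every treated tumor than in every PBS tumor, 2 of 36 genes against 4.66% of all genes.

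**Figure D2:**
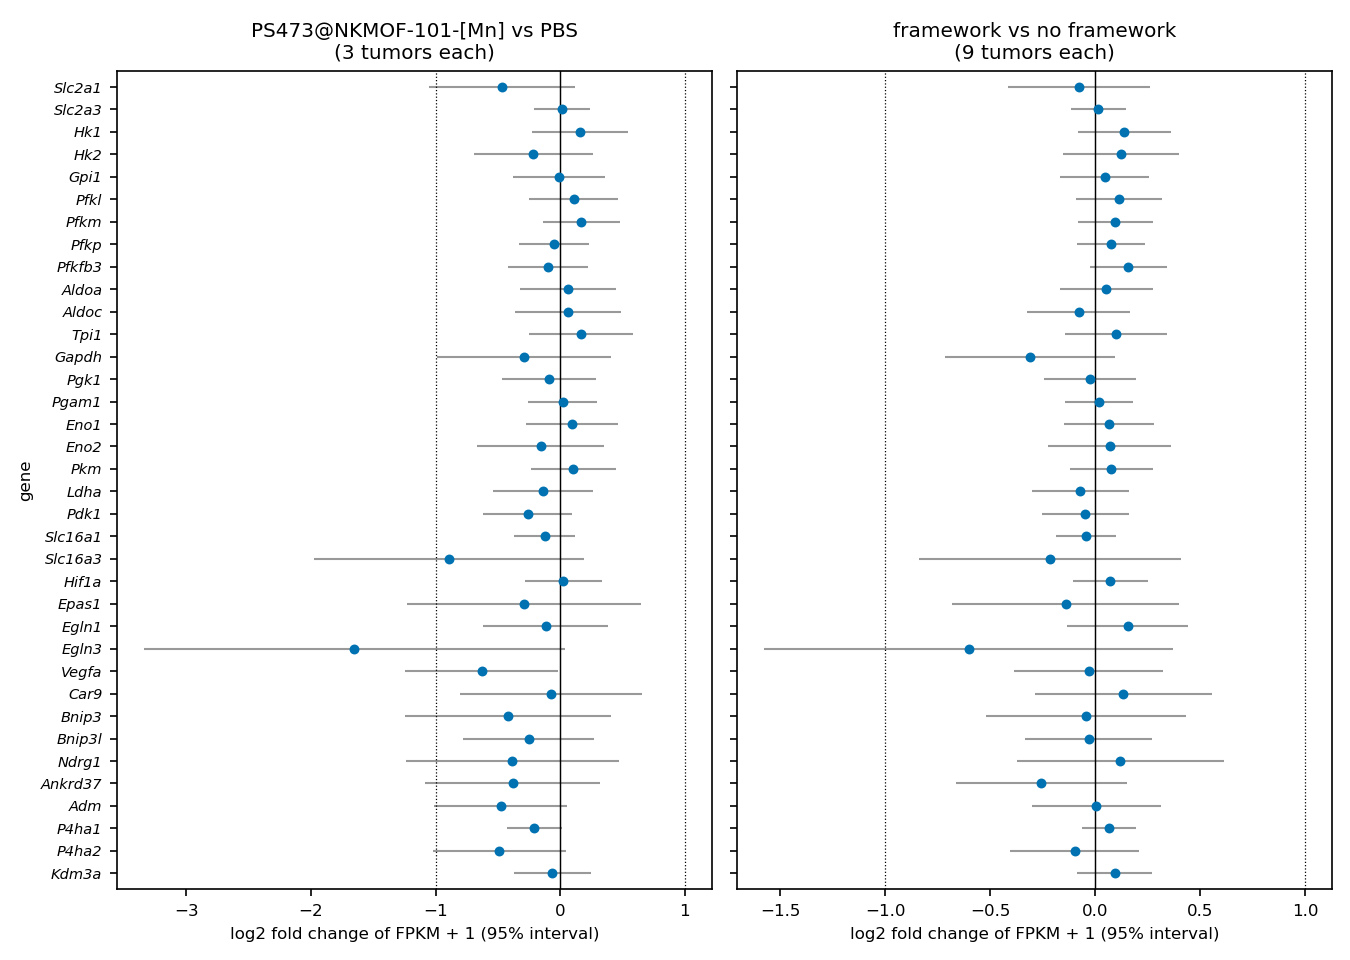
Log2 fold change of FPKM + 1 (horizontal axis) with its 95% interval for the 36 genes tested, for PS473@NKMOF-101-[Mn] against PBS (left, 3 tumors each) and framework tumors against tumors without framework (right, 9 each). Dotted lines mark 2-fold changes. The estimates on the left run from -1.65 for Egln3 to above 0 for 11 genes, and on the right every estimate lies within 2-fold.

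The comparison with the empty framework asks what the ribozyme adds. None of the 36 genes was called (0 of 12357, 0.0%, smallest adjusted p = 0.999 by limma), and 1 had an unadjusted p under 0.05 beside 2.3% of all genes. This was Aldoc, the brain-type aldolase gene, at 31.3, 25.5 and 44.3 FPKM in PS473@NKMOF-101-[Mn] tumors and 22.7, 24.7 and 21.4 FPKM in NKMOF-101-[Mn] tumors. The groups did not overlap, and the log2 fold change was 0.50 (95% interval 0.08 to 0.93, adjusted p = 0.999). Groups did not overlap for 3 of the 36 genes against 7.91% of all genes, the others being Slc16a1 and Slc16a3, both lower with the ribozyme. The estimate was below 0 for 16 of the 36 genes against 61.7% of all genes. The largest estimate was that of Epas1, 3.01, 2.59 and 2.49 FPKM against 7.66, 5.16 and 2.75 FPKM, at a log2 fold change of -0.67 (95% interval -1.60 to 0.27). NKMOF-101-[Mn] tumors 1 and 2 were the ones above all 3 treated tumors by a wide margin. They also had the higher endothelial marker scores of their group, 2.77 and 2.21 against 1.58, whose part in the difference was not tested.

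The comparison with the inactive mutant in the same framework separates cutting from carrier and RNA. Again none of the 36 genes was called (0 of 12357, 0.0%, smallest adjusted p = 1 by limma). At an unadjusted p under 0.05 there were 2 of 36, against 0.591% of all genes. Adm was 22.3, 20.3 and 19.9 FPKM in PS473@NKMOF-101-[Mn] tumors and 27.2, 35.2 and 32 FPKM in M5@NKMOF-101-[Mn] tumors, a log2 fold change of -0.57 (95% interval -1.10 to -0.04, adjusted p = 1). P4ha1 was 20.5, 17.6 and 17.7 FPKM against 22.4, 22.3 and 23.1 FPKM, a log2 fold change of -0.27 (95% interval -0.50 to -0.05, adjusted p = 1). The groups did not overlap for either gene, nor for Slc2a1, Eno2 and Slc16a3, each lower with PS473, which makes 5 of 36 genes against 4.48% of all genes. Estimates were below 0 for 32 of the 36 genes, against 53.3% of all genes, with a median log2 fold change of -0.14 against -0.01. M5@NKMOF-101-[Mn] tumors were also compared with PBS. Gapdh, whose level is uncertain because of its copies, had an unadjusted p under 0.05 there, at 33.6, 58.5 and 44 FPKM against 117, 82.2 and 44.2 FPKM. Its log2 fold change was -0.75 (95% interval -1.45 to -0.05, adjusted p = 0.999 by limma), and the groups overlapped. It was 1 of the 36 genes beside 1.51% of all genes, and 0 of the 36 were called (0.0% of all genes). Eno1, Pfkl and Pkm were higher in all 3 M5@NKMOF-101-[Mn] tumors than in all 3 PBS tumors, 3 of 36 genes against 8.11% of all genes, and 13 of the 36 estimates were below 0 against 52.3%.

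Of the treatments compared with PBS, PS473@CPs had the lowest median estimate. Estimates were below 0 for 34 of the 36 genes, where 52.7% of all genes were, and the median log2 fold change was -0.22 against -0.01 over all genes. None of the 36 genes was called (0 of 12357, 0.0%, smallest adjusted p = 1.00 by limma). Pdk1 and Vegfa had an unadjusted p under 0.05, 2 of 36 against 2.09% of all genes. Pdk1 was 11.6, 11 and 14.2 FPKM in PS473@CPs tumors and 21.8, 17.9 and 13 FPKM in PBS tumors. Its log2 fold change was -0.47 (95% interval -0.82 to -0.11, adjusted p = 1.00), and PS473@CPs tumor 3 lay above PBS tumor 3. The summed erythroid markers were 45.1, 1567 and 137 FPKM in PS473@CPs tumors and 13897, 1000 and 1274 FPKM in PBS tumors, and their part in this difference was not tested. Vegfa was 34.9, 41.9 and 43.4 FPKM in PS473@CPs tumors, a log2 fold change of -0.63 (95% interval -1.25 to -0.02, adjusted p = 1.00). Egln3 was 0.492, 12.1 and 1.71 FPKM, and its estimate of -1.07 (95% interval -2.75 to 0.62) was the largest. Without PBS tumor 2 that estimate was -0.22, and with the skin epithelium score as a covariate it was -0.81. PS473@CPs tumor 2 and PBS tumor 2, the highest for Egln3 in their groups, had skin epithelium scores of 6.81 and 6.23. Hk2 was lower in every PS473@CPs tumor than in every PBS tumor, 1 of 36 genes against 5.11%. The counts at an unadjusted p turned on PBS tumor 3. Without it they were 12 of the 36 genes against 3.74% of all genes here. They were 9 of the 36 against 3.54% for PS473@NKMOF-101-[Mn] against PBS and 5 of the 36 against 3.33% for NKMOF-101-[Mn] against PBS, with 0 called. That tumor had a skin epithelium score of 5.36, whose part in the counts was not tested.

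Against PS473@CPs, the polymer carrier with the same ribozyme, PS473@NKMOF-101-[Mn] had no called gene of the 36 (0 of 12357, 0.0%, smallest adjusted p = 0.487 by limma) and none at an unadjusted p under 0.05, where 2.29% of all genes were. Estimates were below 0 for 9 of the 36 genes, where 49.7% of all genes were, with a median log2 fold change of 0.16 against 0.00. Ankrd37 was lower in all 3 framework tumors than in all 3 polymer tumors, 1 of 36 genes against 4.12% of all genes. Slc16a3 had the largest estimate, with 2.16, 1.91 and 1.85 FPKM against 1.51, 10.8 and 2.5 FPKM and a log2 fold change of -0.66 (95% interval -1.75 to 0.42). This estimate rests on PS473@CPs tumor 2, without which it was 0.0019, and with the skin epithelium covariate it was -0.40. Without PS473@NKMOF-101-[Mn] tumor 2, which had the lowest erythroid level of all tumors, 7 of the 36 genes had an unadjusted p under 0.05 against 4.12% of all genes, and in the comparison with the empty framework 8 of the 36 did against 5.63%. PS473@CPs tumor 2 had the highest skin epithelium and neutrophil scores of all 18.

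Against Free PS473, again none of the 36 genes was called (0 of 12357, 0.0%, smallest adjusted p = 0.781 by limma) and none had an unadjusted p under 0.05, where 4.98% of all genes did. P4ha2 had the largest estimate, 24.5, 12.8 and 12.8 FPKM against 24.4, 21.3 and 24.3 FPKM, a log2 fold change of -0.52 (95% interval -1.06 to 0.01). PS473@NKMOF-101-[Mn] tumor 1 was above all 3 Free PS473 tumors, and tumors 2 and 3 were below them. Epas1 and Slc2a3 were lower than Free PS473 in every tumor, 2 of 36 genes against 6.82% of all genes, and 22 of the 36 estimates were below 0 against 61.5%.

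NKMOF-101-[Mn] against PBS (0 of 36 called, 0.0% of all genes, smallest adjusted p = 1.00) left Aldoc with an unadjusted p under 0.05, 1 of 36 against 1.46%. Its log2 fold change was -0.44 (95% interval -0.86 to -0.01), with 36.1, 30.5 and 28 FPKM in PBS tumors, all above the NKMOF-101-[Mn] values given above. With Slc2a3, which was higher, Aldoc made 2 of 36 genes whose groups did not overlap, against 6.02% of all genes. Estimates were below 0 for 30 of the 36 genes against 41.2% of all genes, with a median log2 fold change of -0.14 against 0.03. Free PS473 against PBS (0 of 36 called, 0.0% of all genes, smallest adjusted p = 1.00) had none, where 1.81% of all genes had. Slc2a3 was higher in every Free PS473 tumor, 1 of 36 genes against 4.91%, and 24 of the 36 estimates were below 0 against 40.5%. Egln3 was again the largest estimate in both, -1.33 (95% interval -3.02 to 0.36) for NKMOF-101-[Mn] at 3.17, 1.11 and 2.48 FPKM, and -1.31 (95% interval -2.99 to 0.38) for Free PS473 at 1.67, 0.736 and 5.94 FPKM. It was also the largest for M5@NKMOF-101-[Mn] against PBS, -1.20 (95% interval -2.88 to 0.49) at 1.34, 2.4 and 4.07 FPKM. These comparisons share the PBS tumors, and without PBS tumor 2 the estimates were -0.48, -0.46 and -0.35. With the skin epithelium score as a covariate they were -0.89, -0.38 and -0.36.

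Over all 6 groups at once, a moderated F test by limma also called none of the 36 genes (0 of 12357, 0.0%). Their smallest unadjusted p was 0.071, for P4ha1, and 1.99% of all genes were at an unadjusted p under 0.05.

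Pooling the 9 framework tumors against the other 9 asked whether the carrier itself went with a shift of the genes. None of the 36 was called (0 of 12357, 0.0%, smallest adjusted p = 0.9 by limma), and none had an unadjusted p under 0.05, where 4.56% of all genes did. Below 0 were 15 of the 36 estimates against 52.4% of all genes. Slc2a1 ranged from 58.1 to 112 FPKM in framework tumors (median 79.3) and from 51.2 to 128 FPKM without (median 86.2), a log2 fold change of -0.08 (95% interval -0.42 to 0.26). Ldha ranged from 456 to 726 FPKM (median 594) and from 516 to 840 FPKM (median 578), a log2 fold change of -0.07 (95% interval -0.30 to 0.16). Vegfa ranged from 29.5 to 76.2 FPKM (median 51) and from 34.9 to 79.9 FPKM (median 43.4), a log2 fold change of -0.03 (95% interval -0.39 to 0.33). Car9 ranged from 36.7 to 70.6 FPKM (median 48.7) and from 28.8 to 73.3 FPKM (median 53.1), a log2 fold change of 0.14 (95% interval -0.29 to 0.56). Egln3 ranged from 1.11 to 4.07 FPKM (median 1.98) and from 0.492 to 24.4 FPKM (median 1.96), and its estimate of -0.60 (95% interval -1.58 to 0.37) was the largest. Without PBS tumor 2 it was -0.32, and -0.32 with the skin epithelium covariate. All 5 genes overlapped widely, and 35 of the 36 intervals lay inside a 2-fold change in both directions.

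The balance of 2 related genes did differ between these tumors. Pfkfb3 and Pfkfb4 encode forms of the enzyme that makes and breaks fructose 2,6-bisphosphate, the activator of phosphofructokinase, and both are known HIF targets. Of 8 ratios of related genes compared between framework tumors and the others, the one of Pfkfb3 to Pfkfb4 passed. The FPKM ratio was 7.14 to 12.1 (median 7.48) in framework tumors and 3.12 to 7.91 (median 5.01) in the others. Of the tumors without framework, PS473@CPs tumor 3 was the one inside the range of the framework tumors. On the scale of log2(FPKM + 1), the difference Pfkfb3 minus Pfkfb4 was 1.86 ± 0.14 against 1.51 ± 0.21 (SD, n = 9 each), 0.35 higher with framework (two-sided exact permutation test, p = 0.000494, adjusted over the 8 ratios p = 0.00395). The part of each gene was smaller: Pfkfb3 was 0.16 higher (exact permutation test, p = 0.101) and Pfkfb4 0.19 lower (exact permutation test, p = 0.0308, not adjusted). Pfkfb3 lay between 3.62 and 6.14 FPKM in framework tumors (median 4.75) and between 3.46 and 5.68 FPKM in the others (median 3.94). Pfkfb4 lay between 0.345 and 0.821 FPKM with framework (median 0.612) and between 0.536 and 1.24 FPKM without (median 0.876). Pfkfb4 rested on 57.5 to 249 fragments per tumor, as recovered from the FPKM values.

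All 3 framework groups were higher than PBS in this ratio, with mean differences of 0.20 for PS473@NKMOF-101-[Mn], 0.30 for NKMOF-101-[Mn] and 0.34 for M5@NKMOF-101-[Mn]. In each of these comparisons the groups of 3 did not overlap, and p was the smallest that 3 tumors against 3 can give (exact permutation test, p = 0.1). Free PS473, without framework, was 0.15 lower than PBS, and these groups of 3 did not overlap either (exact permutation test, p = 0.1). Complete separation from PBS was thus not particular to the framework groups, though its direction differed. PS473@CPs was 0.07 lower than PBS, with an SD of 0.38 (exact permutation test, p = 0.8). Pfkfb4 rose with the skin epithelium score among the 10 tumors that had one above the split (r = 0.82) and ran against it among the other 8 (r = -0.77), given as a description. In those 8 the score spanned only 0.15 to 0.22, so the second r cannot show a relation with skin content. The ratio differed by 0.35 among the 8 tumors with little skin epithelium (4 against 4, exact permutation test, p = 0.0286) and by 0.35 among the 10 with more (5 against 5, exact permutation test, p = 0.0317). A p of 0.0286 is the smallest that 4 tumors against 4 can give. Both sets are parts of the tumors already compared and were formed after the values had been seen, so they give no separate evidence. The genes took unequal parts in both sets: with little skin epithelium Pfkfb3 was 0.24 higher (exact permutation test, p = 0.0286) and Pfkfb4 differed by -0.11 (exact permutation test, p = 0.286), and with more Pfkfb3 differed by 0.09 (exact permutation test, p = 0.5) and Pfkfb4 by -0.26 (exact permutation test, p = 0.0556). Whether these parts differ between the sets was not tested. The remaining 7 ratios (Slc2a1 to Slc2a3, Hk2 to Hk1, Pfkp to Pfkl, Aldoa to Aldoc, Eno1 to Eno2, Slc16a3 to Slc16a1 and Epas1 to Hif1a) had adjusted p from 0.457 to 0.992 (exact permutation tests).

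**Figure D3:**
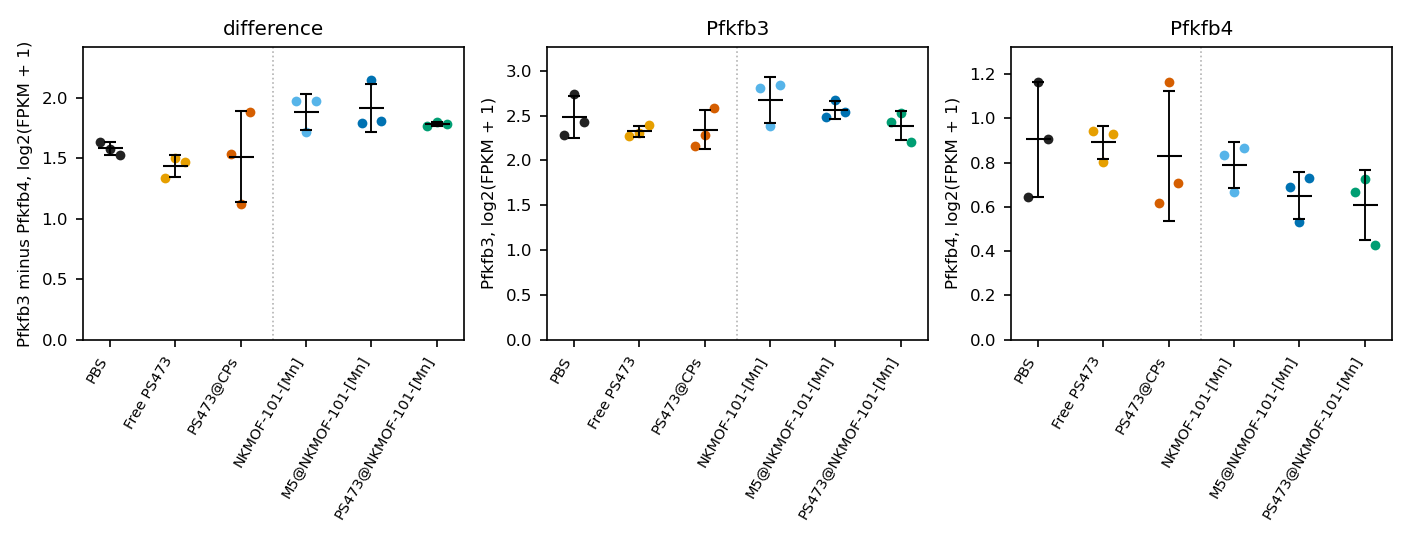
Difference of Pfkfb3 and Pfkfb4 on the scale of log2(FPKM + 1) (left), and log2(FPKM + 1) of Pfkfb3 (middle) and of Pfkfb4 (right), in 3 tumors of each of 6 groups. Points are tumors, black bars are the mean ± SD of 3, and the dotted line separates tumors without framework (left) from framework tumors (right). On the left, framework tumors lie between 1.71 and 2.15, and the others between 1.12 and 1.88.

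Several of the hypoxia genes were correlated across the 18 tumors. Of 28 pairs among Slc2a1, Pdk1, Bnip3, Vegfa, Ndrg1, Egln3, P4ha1 and Car9, 23 were correlated at an adjusted p under 0.05 by Pearson's r and the same number by Spearman's rho (100000 resamples, adjusted over 28 pairs). The 21 pairs without Egln3 all passed, with r from 0.58 to 0.88. Over all pairs of the 12357 genes tested, 6.3% had an r of 0.58 or more, given as a description with no test. Slc2a1 and Ndrg1 had r = 0.88 and rho = 0.87 (permutation p = 1e-05 for both, the smallest that the resamples can give, adjusted p = 0.000187 and 0.00014). For Pdk1 and Bnip3, r was 0.87 (permutation p = 2e-05, adjusted p = 0.000187) and rho 0.83 (permutation p = 7e-05, adjusted p = 0.000392). For Vegfa and P4ha1, r was 0.85 and rho 0.84 (permutation p = 2e-05 and 4e-05, adjusted p = 0.000187 and 0.00028). Without the 2 tumors farthest from the median of the first gene, r was 0.80, 0.88 and 0.84 in these 3 pairs, and 20 of the 28 pairs passed. On deviations from the group means, r of the 21 pairs was 0.57 to 0.92, so it stayed positive among tumors of the same treatment. The permutations there treated the 18 deviations as free values although the group means had been removed. Their p-values are therefore too small, and whether each pair passes within groups is left undecided.

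Egln3 followed only part of the others. It was correlated with Slc2a1 (r = 0.71, permutation p = 0.00068, adjusted p = 0.00173; rho = 0.70, permutation p = 0.00177, adjusted p = 0.00381) and with Ndrg1 (r = 0.69, permutation p = 0.00155, adjusted p = 0.00289; rho = 0.68, permutation p = 0.00234, adjusted p = 0.00437). Without the 2 farthest tumors r fell to 0.53 for Slc2a1 (adjusted p = 0.0466 by permutation). For Ndrg1 it fell to 0.43 (adjusted p = 0.101 by permutation), and that relation no longer passed. Its r with Pdk1, Bnip3, Vegfa, P4ha1 and Car9 was 0.14 to 0.35 and did not pass.

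**Figure D4:**
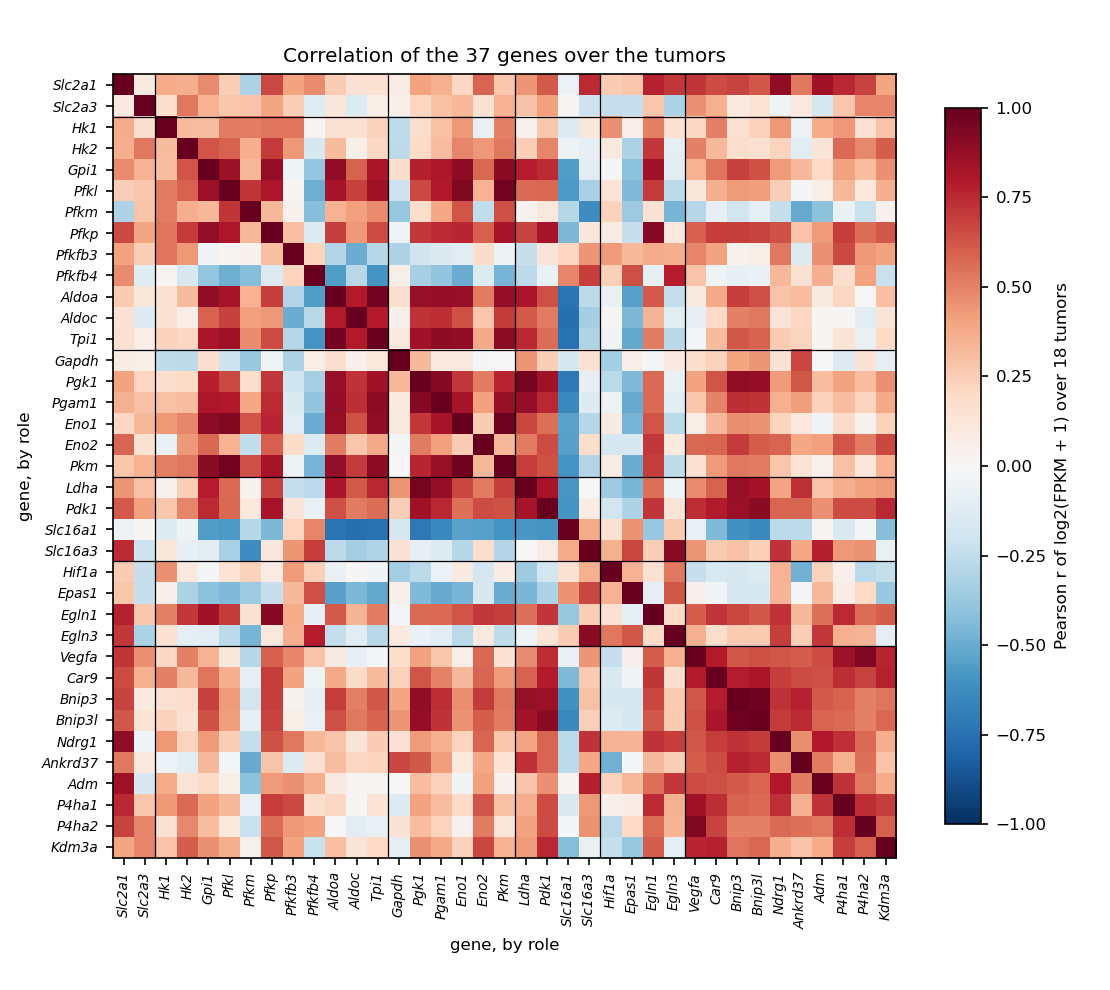
Pearson r of log2(FPKM + 1) over 18 tumors for every pair of the 37 genes, ordered by role on both axes, from -1 (blue) to 1 (red). Red blocks join Gpi1, Pfkl, Aldoa, Tpi1, Pgk1, Pgam1, Eno1 and Pkm, and the 10 hypoxia readouts, and the row of Slc16a1 is mostly blue.

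As a description over all pairs of the 37 genes, the median r was 0.33, with 96 pairs (14.4%) above 0.7 and 161 (24.2%) below 0. Over all pairs of genes tested the median was 0.02, with 2.45% above 0.7 and 47.9% below 0. All pairs share the same libraries and their scaling. Within the hypoxia readouts the median of 45 pairs was 0.65 and none was below 0. Bnip3 and Bnip3l reached 0.97 and Vegfa and P4ha2 0.92. The abundant glycolytic genes formed a second set, with r = 0.97 for Eno1 and Pkm, 0.96 for Pfkl and Pkm and 0.96 for Aldoa and Tpi1. Ldha went most closely with Pgk1 (0.95), and Bnip3 after Bnip3l also with Pgk1 (0.89). Egln1 was closest to Pfkp (0.91), and Slc16a3 to Egln3 (0.90). Slc16a1, the transporter that takes lactate in as well as out, ran against most of the list, with a median r of -0.33 and r = -0.76 with Aldoc. Gapdh had a median r of 0.07 with the other genes.

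The genes with the widest range went with markers of cells other than melanoma. Each of the 37 genes was set against 11 marker lists, 407 relations in all, which were added after the values had been seen and adjusted together. Egln3 and the neutrophil score (8 genes) had r = 0.94 (permutation p = 1e-05, adjusted p = 0.00136) and rho = 0.92 (permutation p = 1e-05, adjusted p = 0.00204). Without the 2 tumors with the most extreme scores r was 0.92, on deviations from the group means 0.94, among the 10 tumors with skin epithelium 0.94 and among the other 8 0.61. Slc16a3 and the neutrophil score had r = 0.88 (permutation p = 1e-05, adjusted p = 0.00136) and rho = 0.89 (permutation p = 1e-05, adjusted p = 0.00204), and r = 0.74 without the 2 extreme tumors. Of the 8 neutrophil markers, 2 passed the filter on level, 5 were at 0 in some tumor and Ly6g, a defining marker, had a median of 0. Their summed level was 2.22 to 463 FPKM in PBS, 0.516 to 151 in Free PS473, 0.744 to 301 in PS473@CPs, 2.27 to 12.9 in NKMOF-101-[Mn], 1.43 to 21 in M5@NKMOF-101-[Mn] and 1.14 to 2.35 FPKM in PS473@NKMOF-101-[Mn]. Keratinocytes can also express S100a8 and S100a9 of this list. The tumors highest in it were those with skin epithelium. Among the 10 tumors with skin epithelium r of Egln3 with the skin score was 0.79, and among the other 8 it was 0.31. Egln3 also rose with the fibroblast score (r = 0.76, permutation p = 0.00022, adjusted p = 0.0128; rho = 0.74, permutation p = 0.00078, adjusted p = 0.0391) and ran against the proliferation score (r = -0.69, permutation p = 0.00077, adjusted p = 0.0261; rho = -0.74, permutation p = 0.00065, adjusted p = 0.0378). Without the 2 extreme tumors r was 0.76 and -0.57. The part of these cells in the differences of Egln3 between groups was not tested.

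Epas1, which is known to be abundant in endothelium, followed the endothelial score (10 genes, 8 of them past the filter and none at 0 in any tumor), with r = 0.90 (permutation p = 1e-05, adjusted p = 0.00136) and rho = 0.85 (permutation p = 5e-05, adjusted p = 0.00509). Without the 2 extreme tumors r was 0.80, and on deviations from the group means 0.88. The summed endothelial level was 8.38 to 94.8 FPKM over all tumors. Vegfa, the growth factor for these cells, had no such relation that passed.

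The erythroid markers (8 genes, among them globins) went with several hypoxia genes by both measures. They were Pdk1 (r = 0.72, permutation p = 0.00087, adjusted p = 0.0272; rho = 0.71, permutation p = 0.00121, adjusted p = 0.0391), Bnip3 (r = 0.69 and rho = 0.72), Bnip3l (r = 0.68 and rho = 0.68) and Ldha (r = 0.68 and rho = 0.74), each with an adjusted p under 0.05 by permutation. The summed erythroid level ranged from 41.3 FPKM in PS473@NKMOF-101-[Mn] tumor 2 to 13897 FPKM in PBS tumor 1, the tumor with the highest Bnip3. Without the 2 extreme tumors r was 0.64, 0.59, 0.63 and 0.67. The part of blood in these values was not tested. Hk2 ran against the adipocyte score (r = -0.70, permutation p = 0.00116, adjusted p = 0.0337; rho = -0.71, permutation p = 0.00135, adjusted p = 0.0391). With the skin epithelium score, Egln3 and Slc16a3 passed by both measures over all 18 tumors. Since the tumors form separate clusters in that score, r is given within them, and for Slc16a3 it was 0.70 among the 10 tumors and 0.56 among the other 8. In those 8 the score spanned only 0.15 to 0.22. No relation with the melanoma, skeletal muscle, macrophage or T cell score passed by both measures.

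**Figure D5:**
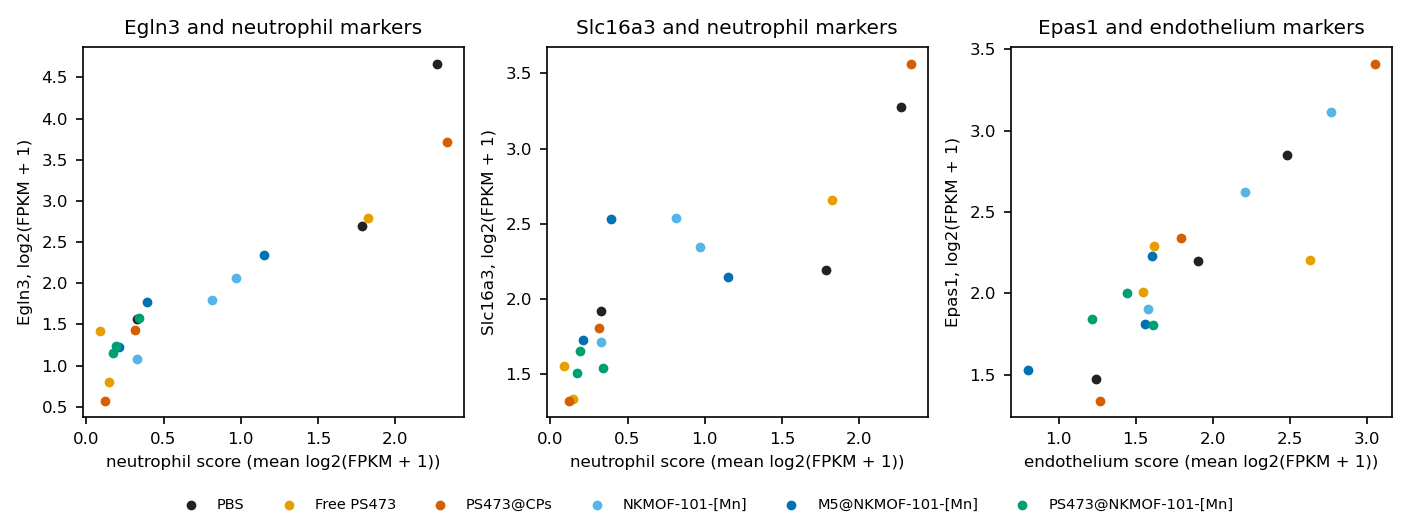
Log2(FPKM + 1) of Egln3 (left) and Slc16a3 (middle) against the neutrophil score, and of Epas1 (right) against the endothelium score, in 18 tumors coloured by group. A score is the mean log2(FPKM + 1) of the markers. The 2 tumors farthest to the right on the left panel, PS473@CPs tumor 2 and PBS tumor 2, hold the highest levels of Egln3 and Slc16a3.

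Other genes of both pathways were examined from lists that hold none of the 37. Of 31 further glycolysis genes, 23 were tested, and of 59 further hypoxia genes, 58 were in the table and 48 were tested. In framework tumors against the others, none of either list was past an adjusted p of 0.05 in either direction. The smallest unadjusted p among the glycolysis genes was that of Hk3, the hexokinase of myeloid cells, which lay between 2.34 and 7.22 FPKM in framework tumors (median 4.51) and between 1.06 and 3.82 FPKM in the others (median 2.31). Its log2 fold change was 0.71 (95% interval 0.23 to 1.18, unadjusted p = 0.00645, adjusted p = 0.9 by limma). The macrophage score, over 10 markers that were above 0 in every tumor, was 3.31 to 5.05 in framework tumors (median 4.06) and 2.64 to 4.87 in the others (median 3.79), with summed levels of 148 to 567 FPKM and 92.7 to 538 FPKM. Its part in the difference of Hk3 was not tested. Pgm1 (0.21) and Adpgk (-0.15) came next by p. Of the hypoxia genes these were the transcription factor gene Bhlhe41 (0.25), the carbonic anhydrase gene Car12 (-0.62) and Ndufa4l2 (-0.72), each with an adjusted p of 0.9. In PS473@NKMOF-101-[Mn] against PBS, 0 of the 23 and 1 of the 48 had an unadjusted p under 0.05, and the medians were 0.02 and -0.13.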

How the data were processed

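RNA was sequenced from 18 tumors, and the authors deposited 1 table of FPKM per gene, which they normalized for gene length and for fragments per tumor. The submitters' processing notes name the genome build GRCm39. The aligner, the counter and the annotation are not given in the sources used here. Low values were whole multiples of a smallest step in 47.3% to 51.4% of cases, so no count model was used and depth was read from the steps. Values were tested as log2(FPKM + 1) in the 12357 genes that averaged 1 FPKM or more, with 1 mean per group, in limma 3.58.1 (R 4.3.3, trended variance, two-sided, Benjamini-Hochberg adjustment over all genes tested). Fold changes of low genes are understated on this scale. A gene was called at an adjusted p under 0.05 and a change above 2-fold. p-values measure the spread between tumors, which nothing in the labels ties to separate mice. Ratios were compared by exact permutation tests and correlations by 100000 permutations (Python 3.11.15, scipy 1.17.1). The code was tested on simulated data.

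Every gene of the list could be named with its level. Fold changes were given for genes with an adjusted p under 0.05 or, failing that, an unadjusted p under 0.05, for the largest change in each comparison, and for Slc2a1, Ldha, Vegfa and Car9 in PS473@NKMOF-101-[Mn] against PBS and in framework tumors against the others. From the other lists, the 3 genes with the smallest p were named. The genes and lists were chosen with earlier results of these data known. Alternatives covered the pseudocount, the filter, the scaling, the samples fitted, the variance trend, a replicate block and leaving out each tumor. No 2 tumors of 153 pairs held identical values, and 0 columns of values were left unused. Promoter sequences are from RefSeq on GRCm38.p6, and no position was carried over to GRCm39.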

Additional observations from a re-analysis of the deposited data

Results flagged for a closer look

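For each of the 37 genes, framework tumors and the others were searched for a single tumor far from the rest, which made 74 groups of 9 tumors, and 2 tumors stood apart. Chance flags about 1 in 20 such groups. Hk1, a hexokinase gene, was 32.9 FPKM in NKMOF-101-[Mn] tumor 2, the lowest of the framework tumors. On the scale of log2(FPKM + 1), its gap to the next was 0.533 of the range. Eno1, the enolase gene, was 1891 FPKM in PS473@CPs tumor 2, the lowest without framework, with a gap of 0.571 of the range on the same scale. That tumor also had the highest skin epithelium score, and the part of that tissue in the value was not tested. The effect of PS473 with framework minus that without it was tested in 36 genes, and 0 passed an adjusted p of 0.05 by limma, with 1 at an unadjusted p under 0.05 and a smallest adjusted p of 1.00.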

How the results depend on the processing

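None of the 36 genes was called in any of 191 recomputed counts. For the 24 fold changes given, 234 of 235 alternatives other than leaving out a tumor kept the direction and the side of the threshold. The exception was Vegfa in framework tumors against the others, at 0.0048 under quantile normalization. Leaving out 1 tumor at a time, log2 fold changes crossed 0 for Ldha (-0.2987 to 0.0572) and Car9 (-0.4458 to 0.2104) in PS473@NKMOF-101-[Mn] against PBS, for Slc16a3 against PS473@CPs (-1.1161 to 0.0019), and for Slc2a1 (-0.173 to 0.0037) and Vegfa (-0.1262 to 0.0413) in framework tumors against the others. The ratios Hk2 to Hk1 (-0.0792 to 0.0514) and Eno1 to Eno2 (-0.0831 to 0.0624) crossed 0 too. The number of the 36 genes at an unadjusted p under 0.05 ran from 1 to 12 in PS473@CPs against PBS, where 1.27% to 4.26% of all genes were, and from 0 to 9 in PS473@NKMOF-101-[Mn] against PBS, where 1.33% to 5.4% were. Both highest counts came without PBS tumor 3. Over all genes, 1 gene was called in PS473@CPs against PBS with only the groups compared, 0 to 1 when a tumor was left out, and 4 in the test over all groups with no filter. The cause was not tested. The genes at an unadjusted p under 0.05 by limma numbered 615 for PS473@NKMOF-101-[Mn] against Free PS473, 73 against M5@NKMOF-101-[Mn], 284 against the empty framework, 283 against PS473@CPs and 260 against PBS. Compared with PBS there were 224 for Free PS473, 258 for PS473@CPs, 181 for the empty framework and 187 for M5@NKMOF-101-[Mn], and 564 for framework tumors against the others.

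The Pfkfb3 to Pfkfb4 difference was 0.59 with a pseudocount of 0.1 (adjusted p = 0.00428, exact permutation test) and 0.30 to 0.40 without 1 tumor (adjusted p = 0.000329 to 0.00889, exact permutation tests). For the 28 pairs tested for correlation, of which 23 had passed, 136 of 140 alternatives kept the direction and the side of the threshold. In 3 a pair no longer passed, and r of Pdk1 and Egln3 became -0.0386 on deviations from the group means. Alternatives on such deviations, also those with a replicate block, have p-values that are too small, so their side of the threshold is uncertain.

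Replicate numbers gave no sign of pairing the tumors: of 45 correlations between same-numbered tumors, 18 were over 0.1. They ranged from -0.73 to 0.72 with a median of -0.019. As correlations of deviations from means of 3 tumors, which also carry differences in tissue content, they cannot exclude a shared cage, litter or day. With a replicate block, 0 of the 36 genes were called in each comparison, and the Pfkfb3 to Pfkfb4 difference had an adjusted p of 0.006 when permuted within replicate numbers. The skin epithelium covariate, the summed copies, the marker relations and the tests of Pfkfb3 and Pfkfb4 alone were chosen after seeing the data. So were the tests of their ratio among tumors with little and with more skin epithelium. With 3 tumors a group, the median 95% interval reached 0.41 to either side on the log2 scale, and 0.24 with 9.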

Other observations

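Related genes outside the list of 37 had levels as high as its members. Mif, a cytokine gene among the further hypoxia genes, had a mean of 1244 FPKM, with 1050 to 1601 FPKM over the tumors. Bsg, which encodes the chaperone of the lactate transporters, had a mean of 444 FPKM, Ldhb, the other lactate dehydrogenase gene, 273 FPKM, and Fam162a, a mitochondrial HIF target, 273 FPKM. The pyruvate dehydrogenase genes Pdha1 (41.5 to 46 FPKM) and Pdhb (39 to 48.7 FPKM) stayed in a narrow range over the 18 tumors. Pgk2, the phosphoglycerate kinase gene of testis, was listed at 0 in every tumor. Ndufa4l2, a HIF target in mitochondria, ranged from 1.41 to 38.1 FPKM.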
